A study of Mus musculus with 5 samples.

Results

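Mast cells signal to their surroundings through secreted cytokines, chemokines and growth factors and through ligands of the tumour necrosis factor (TNF) superfamily, most of which are made as membrane proteins. The genes described here are 40 such ligands, taken by gene symbol from a list of 11 interleukins, 5 genes for TNF, LIF, oncostatin M and colony-stimulating factors, 12 chemokines, 6 growth factors and 6 TNF superfamily ligands. Of these, 36 had a row among the 25549 gene models of the table, while Il3, Il5, Il9 and Il10 had no row in the table used here.

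Total RNA came from mast cells grown out of the marrow of C57BL/6 mice with interleukin-3, known as bone marrow-cultured mast cells. The mice were of matched age and sex and of 2 genotypes, Cpa3-Cre;miR-9∆fl/∆fl (n = 3 samples, called the miR-9 line) and Cpa3-Cre (n = 2 samples). The Cre recombinase is carried by both genotypes and is driven by the Cpa3 promoter, whose gene encodes a carboxypeptidase of mast cell granules. From the labels alone it cannot be read whether recombination turns miR-9 on or deletes it. In the authors' deposited table Gm25641, the model of the Mir9-1 hairpin, rose by 4.50 on the log2 scale in the miR-9 line (22.6-fold higher, p = 3.63e-22). Cells received 50 ng/mL of recombinant interleukin-3 for 6 to 8 weeks and no other treatment, so the ligand genes were read in unstimulated cells. The stated depth was about 70000000 reads per sample, and the depth behind a single gene is not known here. Whether each sample was its own mouse or culture is not labelled, so p-values cover the spread among these samples only, and part of it may be technical.

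In mast cells, cross-linking of the IgE receptor starts calcium and NF-kB signalling, and the transcription factors NFAT and NF-kB then switch on cytokine genes within hours. Many cytokine messengers are short-lived because proteins such as tristetraprolin bind AU-rich repeats in the 3′ untranslated region (UTR) and recruit the decay machinery. MicroRNAs act on the same region by pairing bases 2 to 8, the seed, with the messenger. In bulk RNA, fewer cells of a type and less RNA per cell cannot be told apart.

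Values are log2 fold changes with unadjusted p-values, both copied from the authors' deposited table, and are positive where the miR-9 line was higher. Values per sample were not used, because the columns that hold them match no sample's labels. The standard errors given here are implied ones, that is the deposited log2 fold change divided by the normal score of its deposited p-value. They hold only if the p-values came from a Wald test, which the sources used here do not state. A gene was called at a Benjamini-Hochberg adjusted p under 0.05, computed here over the 24071 genes with a p-value.

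Tnfsf4 alone among the ligand genes passed the test, and it was lower in the miR-9 line. Of the 28 ligand genes with a p-value, 1 was called lower, none higher, and 27 were not called, while 0.411 percent of all genes were called in either direction and 0.166 percent were called lower. At an unadjusted p under 0.05 there were 2 ligand genes, Tnfsf4 and Il6, both with negative values, against 7.92 percent of all genes, a share close to 2 of 28. Negative values were found in 19 of 28 ligand genes (67.9 percent) and in 59.8 percent of the 24071 genes tested. The median log2 fold change was -0.30 over the ligand genes and -0.09 over all genes, and 6 ligand genes lay below the 10th percentile of all genes while 2 lay above the 90th.

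**Figure D1:**
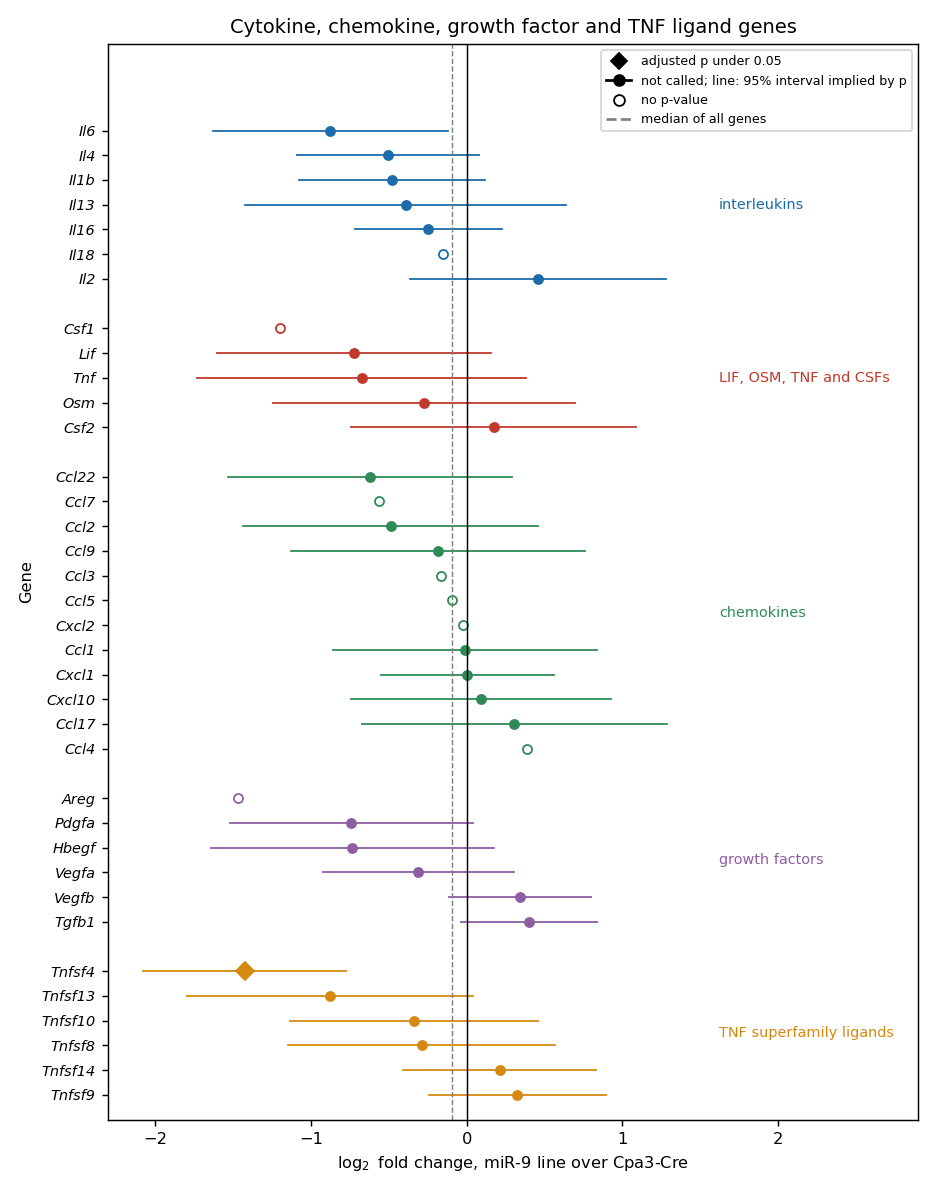
Log2 fold change (x axis, miR-9 line over Cpa3-Cre, authors' deposited values) of the 36 ligand genes with a row, grouped and coloured by role. Lines are 95% intervals implied by the deposited p-values, open circles have no p-value, the diamond is the called gene Tnfsf4 at -1.43, and the dashed line is the median of all genes at -0.09.

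The implied standard errors of the 28 ligand genes ranged from 0.22 for Tgfb1 to 0.54 for Tnf, with a median of 0.42, against a median of 0.40 over all genes. The largest p-value that was still called was 0.000205. With their implied errors, the ligand genes would have needed deposited log2 fold changes of 0.83 to 2.00 to pass, with a median of 1.57. The implied errors of Tnf (0.539), the T cell gene Cd4 (0.540) and the collagen gene Col1a1 (0.540) were nearly equal. An implied error may therefore not give a gene's own precision, and these needed values are not differences known to be detectable. A p-value that missed the threshold does not show that a gene was unaltered.

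TNF superfamily ligands gave the called gene. Tnfsf4 encodes OX40 ligand, a membrane protein with which antigen-presenting cells and mast cells costimulate T cells through the receptor OX40. In the authors' deposited table Tnfsf4 fell by 1.43 on the log2 scale, which is 2.69-fold lower in the miR-9 line (p = 1.76e-05). Adjustment of the p-values in the authors' deposited table by Benjamini-Hochberg, done here, gave Tnfsf4 an adjusted p of 0.0115, and the implied standard error was 0.33, for an implied 95% interval of -2.08 to -0.77. With the stricter Benjamini-Yekutieli adjustment over the same genes its adjusted p was 0.122, which ends the call. By p-value it ranked 37 among all genes, and by log2 fold change it was number 109 from the lowest. The gene has 3 exons on the plus strand of chromosome 1, from 161395409 to 161418410 (GRCm38), and no other gene model of the table overlaps its exons.

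No gene around Tnfsf4 was called. Within 1 Mb on either side the table holds 22 gene models, 21 of them with a p-value, and 0 were called after adjustment. Among those 21, log2 fold changes in the authors' deposited table ran from -0.73 (Ankrd45) to 0.15 (Pigc), with a median of -0.13 and 16 negative values. The nearest model, Tnfsf18, encodes GITR ligand, lies 76245 bases away and stood at -0.39 in the authors' deposited table without a p-value.

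The other 5 TNF superfamily ligands had no called gene by the Benjamini-Hochberg adjusted p and none at an unadjusted p under 0.05. Tnfsf13, which encodes the B cell survival factor APRIL, was listed at -0.88 (p = 0.0620) in the authors' deposited table (implied interval -1.80 to 0.04). Its exons share 983 bases with the same-strand gene model Tnfsf12, which stood at -0.10 (p = 0.733) in the authors' deposited table, and counts of the pair may be mixed. Tnfsf10, for the death ligand TRAIL, stood at -0.34 (p = 0.409) and Tnfsf8, for CD30 ligand, at -0.29 (p = 0.509) in the authors' deposited table. The neighbours Tnfsf9, for the costimulator 4-1BB ligand, and Tnfsf14, for LIGHT, had positive values of 0.33 (p = 0.260) and 0.21 (p = 0.502) in the authors' deposited table. In all, 4 of the 6 family members were on the negative side and this pair on chromosome 17 on the positive side.

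Because the mice differ at miR-9, the 3′ UTRs were searched for sites of this microRNA. The mature sequences below are from RefSeq (GRCm38.p6), are the same at Mir9-1 (chromosome 3), Mir9-2 (chromosome 13) and Mir9-3 (chromosome 7), and have the seed in capitals.
mmu-miR-9-5p: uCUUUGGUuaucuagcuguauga
mmu-miR-9-3p: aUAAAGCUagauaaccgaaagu

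ACCAAAG, the 7 bases that pair with the seed of miR-9-5p, was present in the longest annotated 3′ UTR of 4 of 36 ligand genes (11.1 percent) and of 13.3 percent of 16560 genes of the table with an annotated 3′ UTR. Csf1, Cxcl2 and Tnfsf8, which are among the 4, had 1 match each. No ligand gene had the 7-base match to miR-9-3p (AGCTTTA), which 11.9 percent of all genes had. Their sites are shown on the messenger strand with the match in capitals, from GENCODE M21 transcripts on GRCm38, and the site of Lifr is added because it was the called gene among the receptors described further on.
Csf1 (chr3:107742957-107742984, minus strand): cccttagactctcaACCAAAGagaaagg
Cxcl2 (chr5:90905233-90905260, plus strand): ccctcaacggaagaACCAAAGagaaaga
Tnfsf8 (chr4:63831808-63831835, minus strand): ttaggaccctcagaACCAAAGgagtttg
Lifr (chr15:7193002-7193029, plus strand): aagccagagccaacACCAAAGagtttct

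In Csf1, Cxcl2 and Lifr the match is followed by an A, the longest canonical type of seed site, and in Tnfsf8 it is followed by a G. The site of Lifr begins at base 1847 of a 3′ UTR of 6320 bases and that of Csf1 at base 189 of 2111 bases. That of Cxcl2 begins at base 803 of 1494 bases and that of Tnfsf8 at base 2286 of 2799 bases. The 3′ UTR used for Cxcl2 exceeds the summed exons of its deposited model (1054 bases), so it holds sequence that the model lacks. The ligand genes shown had different values in the authors' deposited table, where Csf1 stood at -1.20 without a p-value, Tnfsf8 at -0.29 (p = 0.509) and Cxcl2 at -0.02 without a p-value. Of the 26 ligand genes with a p-value and no site, 17 were negative (median -0.29). Whether these sites are used in these cells was not tested, and total RNA libraries of this kind do not measure the mature microRNA.

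Interleukin genes had negative values in 5 of 6 with a p-value, and none was called by the Benjamini-Hochberg adjusted p, with 1 at an unadjusted p under 0.05. Il6, for the inflammatory cytokine interleukin-6, had the second smallest p-value of all ligand genes and was listed in the authors' deposited table at -0.88, 1.83-fold lower in the miR-9 line (p = 0.0229). After the adjustment made here, which was not part of the authors' deposited table, Il6 had an adjusted p of 0.484, and its implied interval was -1.63 to -0.12. The type 2 cytokine genes Il4 (-0.50, p = 0.0921) and Il13 (-0.39, p = 0.456), which lie next to each other on chromosome 11, had negative values in the authors' deposited table. Il1b, for the inflammasome-processed interleukin-1 beta, stood at -0.48 (p = 0.115) in the authors' deposited table, and Il16, for a chemoattractant of CD4+ cells, at -0.25 (p = 0.307).

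The exception was Il2, for the T cell growth factor interleukin-2, at 0.46 in the authors' deposited table (p = 0.277). It was the highest value of the 28 ligand genes. Il18, for another inflammasome-processed cytokine, stood at -0.15 in the authors' deposited table without a p-value. Its model there starts at 50575273 of chromosome 9, against 50554827 in GENCODE M21, so it leaves out the 5′ part of the gene. The other 35 ligand genes began and ended within 1000 bases of their M21 gene.

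The genes of TNF, LIF, oncostatin M and the colony-stimulating factors gave 3 negative values of 4 with a p-value. Here, as among the chemokines and growth factors, no gene was called by the Benjamini-Hochberg adjusted p and none had an unadjusted p under 0.05. Lif stood at -0.72 (p = 0.106) and its neighbour Osm, for oncostatin M, at -0.27 (p = 0.582) in the authors' deposited table; both encode ligands that signal through the gp130 chain. Tnf, a cytokine that mast cells also store in granules, stood at -0.67 (p = 0.211) in the authors' deposited table and had the widest implied interval, -1.73 to 0.38. Csf2, for the growth factor GM-CSF, stood at 0.17 (p = 0.709) in the authors' deposited table. Csf1, for the macrophage growth factor M-CSF, stood at -1.20 in the authors' deposited table but had no p-value, so it could not be called either way.

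Chemokine genes centred near 0. Of the 12, 7 had a p-value, 4 of them negative, with a median of -0.01. The dendritic cell chemokine genes Ccl22 (-0.62, p = 0.183) and Ccl17 (0.31, p = 0.540), neighbours on chromosome 8 that share the receptor CCR4, had opposite signs in the authors' deposited table. Ccl2, for a monocyte attractant, stood at -0.49 (p = 0.314), and Ccl9, for a myeloid chemokine, at -0.18 (p = 0.703) in the authors' deposited table. Ccl1, the ligand of CCR8, stood at -0.01 (p = 0.980) in the authors' deposited table, with an implied interval from -0.86 to 0.83. Its model there has 12 exons from 82176657 to 82305690 of chromosome 11, minus strand. The RefSeq promoter of Ccl1 lies inside that span, at 82179763 to 82180062, so the value may cover more than the chemokine gene. The neutrophil attractant gene Cxcl1 (0.00, p = 0.986) and the interferon-induced Cxcl10 (0.09, p = 0.826) were also close to 0 in the authors' deposited table.

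The remaining 5 chemokine genes had a fold but no p-value. Ccl7, for a monocyte attractant beside Ccl2, stood at -0.56 and Ccl4, for MIP-1 beta, at 0.38 in the authors' deposited table. Ccl3, for MIP-1 alpha, stood at -0.16, Ccl5, for RANTES, at -0.09 and Cxcl2, for a chemokine that draws neutrophils, at -0.02 in the authors' deposited table. Ccl3 and Ccl4, like Cxcl1 and Cxcl2, are close relatives, which leaves their values uncertain if reads of one were given to the other.

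Growth factor genes gave 3 negative and 2 positive values. Pdgfa, for a mitogen of mesenchymal cells, stood at -0.74 (p = 0.0630) and Hbegf, for an EGF family ligand, at -0.73 (p = 0.114) in the authors' deposited table. Vegfa, the main angiogenic factor, stood at -0.31 (p = 0.321) in the authors' deposited table. On the other side were Tgfb1, for the T cell-restraining cytokine TGF-beta 1, at 0.40 (p = 0.0725) and Vegfb, for a relative of Vegfa, at 0.34 (p = 0.142) in the authors' deposited table. They had the smallest implied errors of the 28 ligand genes, 0.22 and 0.23, and their implied intervals of -0.04 to 0.83 and -0.11 to 0.80 include 0. Areg, for the EGF receptor ligand amphiregulin, had the most negative fold of all 36, -1.47 in the authors' deposited table, with no p-value. Pdgfa shares 813 exon bases with the opposite-strand model 6330403L08Rik (-0.72, p = 0.149 in the authors' deposited table), and no source used here says if reads were counted by strand. The exons of Il16 (1202 bases, with Stard5), Tnfsf13 (221 bases, with 2010012P19Rik), Cxcl10 (133 bases) and Il1b (25 bases) also overlap models on the opposite strand.

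A fold change without a p-value was listed for 8 of 36 ligand genes (22.2 percent) and for 1478 of all 25549 rows (5.78 percent). Of the receptor genes of these ligands, 14 of 45 rows lacked one. So did 11 of 12 neutrophil markers and 11 of 13 monocyte and macrophage markers, among them Csf1r, Cd68 and Lyz2, and 0 of 12 mast cell markers. Csf1r and Ccr2 are counted both as receptor genes and as monocyte and macrophage markers. Without a p-value, the neutrophil genes S100a8, S100a9 and Camp were listed at log2 fold changes of -0.00067, -0.0017 and -0.00051 in the authors' deposited table. Why these p-values are empty was not tested.

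**Figure D2:**
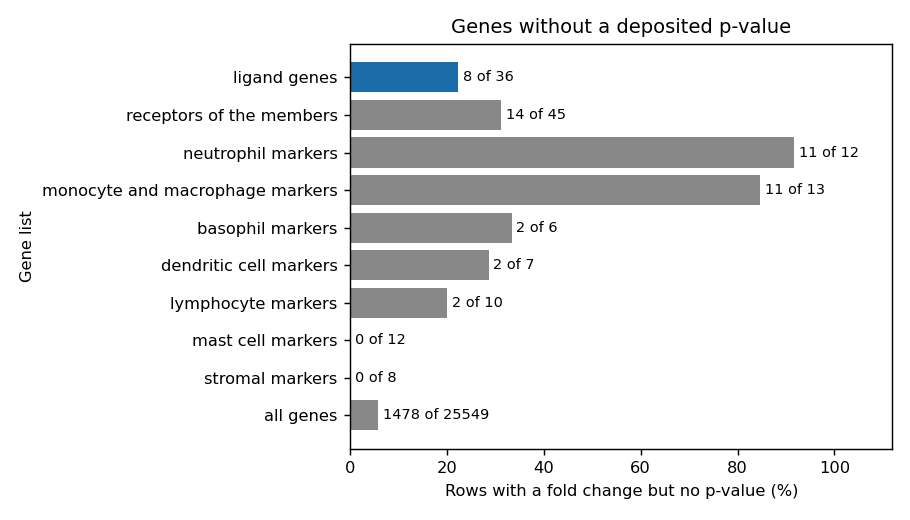
Share of rows with a fold change but no deposited p-value (x axis, percent) for the ligand genes (blue), their receptors, cell type markers and all genes (grey), with counts beside the bars. Neutrophil markers (11 of 12) and monocyte and macrophage markers (11 of 13) stand highest, the ligand genes are at 8 of 36, and mast cell markers at 0 of 12.

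Markers of the cells were read beside these values. The 12 mast cell markers had a median of 0.10, with 10 positive and 2 negative values. In the authors' deposited table Kit stood at -0.04 (p = 0.910), Fcer1a at 0.09 (p = 0.815) and Cma1 at 0.97 (p = 0.0176). The 1 called marker was the tryptase gene Tpsb2, which the authors' deposited table lists at 1.60 with p = 2.53e-05. Its adjusted p, computed here, was 0.0149, and 0.158 with the Benjamini-Yekutieli adjustment. Their levels were not used here, so the label of the cells was not checked by abundance. Markers of cell types that a marrow culture could also hold had no called gene among the lists described next. All 8 lymphocyte markers with a p-value were negative (median -0.52, from -1.03 to -0.07), as were 5 of 5 dendritic cell markers (median -0.42). Of 8 stromal markers 6 were negative (median -0.52) and of 4 basophil markers 1 (median 0.44), against 59.8 percent of all genes. Implied errors of Cd4, Cd209a and Col1a1, each 0.54, matched the largest of the ligand genes. Those of Xcr1 (0.27) and Pecam1 (0.23) were smaller. Cd3d had the smallest p-value among lymphocyte markers (-1.03, p = 0.00887 in the authors' deposited table), while the basophil markers Ifitm1 (0.72, p = 0.00135) and Gzmb (0.80, p = 0.0494) had positive values there. The 2 monocyte and macrophage markers with a p-value had opposite signs in the authors' deposited table, Apoe at -1.31 (p = 0.00326) and Cx3cr1 at 0.77 (p = 0.0970). The part of such cells in the ligand values was not tested.

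Related ligand genes outside the 40 had no called gene by the Benjamini-Hochberg adjusted p, and 5 with an unadjusted p under 0.05. These 5 were 1 of 15 other interleukins and related cytokines, 3 of 16 other chemokines and 1 of 14 other growth factors. The 15 hold no interferon gene, so nothing is said here about interferons. Of all genes, 7.92 percent had such a p-value. Medians of the lists were -0.17 for the other interleukins and related cytokines and -0.26 for the other chemokines. They were -0.43 for 8 other TNF superfamily ligands and -0.32 for the other growth factors. The smallest p-values were those of Ccl27a, a skin-homing chemokine gene (-1.45, p = 0.000444, adjusted p computed here 0.0723), Il15, for a growth factor of NK cells (-1.02, p = 0.00375), Cxcl16 (-1.003, p = 0.00847) and Kitl, for the mast cell growth factor stem cell factor (-1.07, p = 0.0339), in the authors' deposited table. Tslp, for an epithelial alarmin, was among the few with a large positive value, 0.88 (p = 0.0893) in the authors' deposited table.

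**Figure D3:**
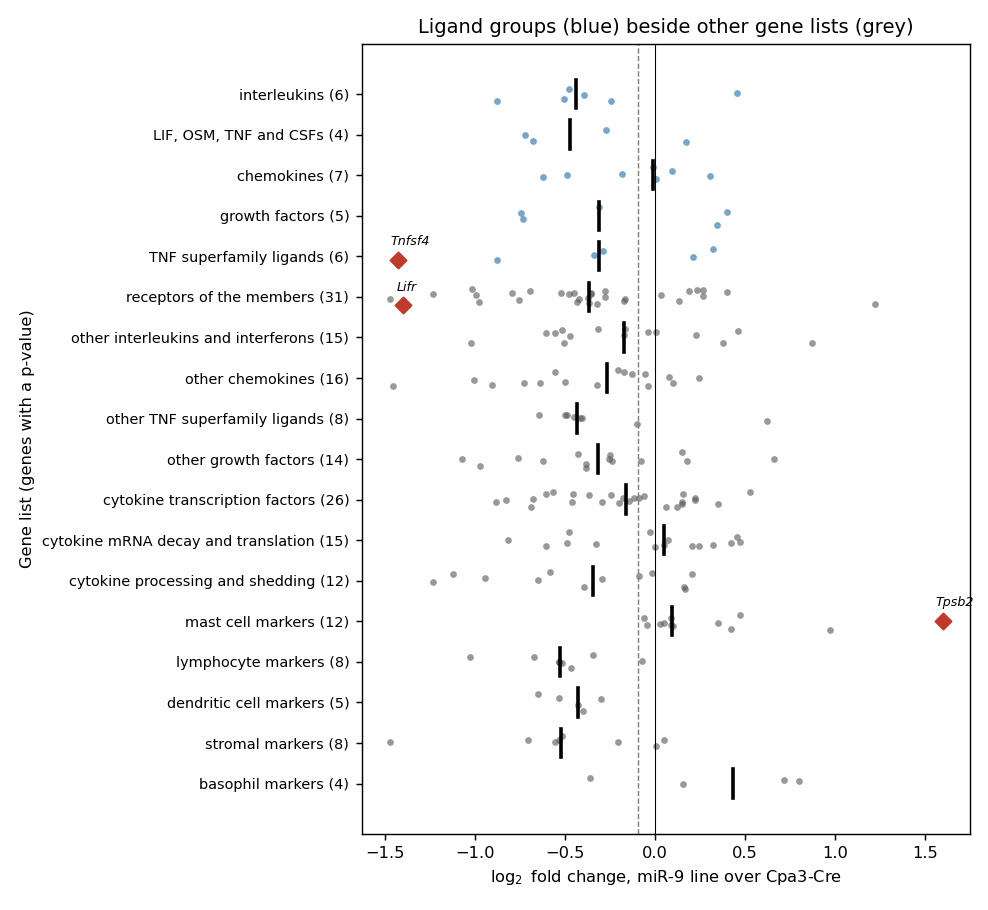
Log2 fold change (x axis, miR-9 line over Cpa3-Cre, authors' deposited values) of each gene with a p-value in the ligand groups (blue) and in other lists (grey), with the number of genes in parentheses. Black bars are medians, red diamonds the called genes Tnfsf4, Lifr and Tpsb2, and the dashed line the median of all genes at -0.09. Jitter in height has no meaning. The list labelled other interleukins and interferons holds no interferon gene with a p-value.

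Among genes of the receptors for these ligands, 1 of 31 with a p-value was called lower, none higher and 30 were not called. Of all genes, 0.411 percent were called in either direction and 0.166 percent lower. Lifr, for the receptor chain of LIF, stood at -1.40 and 2.63-fold lower, per the authors' deposited table (p = 3.04e-05). Its adjusted p, computed here, was 0.0166, and the Benjamini-Yekutieli adjustment, at 0.177, ends this call too. The gene of its ligand was not called and was also negative. The median of the 31 was -0.36, with 23 negative (74.2 percent, against 59.8 percent of all genes). At an unadjusted p under 0.05 there were 7 of the 31, 6 with negative and 1 with a positive value, against 7.92 percent of all genes. The negative ones beside Lifr were Il2rg, the shared gamma chain (-0.52, p = 0.00190), Pdgfra (-1.47, p = 0.00628), Erbb4 (-1.23, p = 0.0216), Il2ra (-1.01, p = 0.0297) and the gp130 gene Il6st (-0.98, p = 0.0363) in the authors' deposited table. The positive one was Il9r, for the receptor of the mast cell growth factor interleukin-9, which the authors' deposited table lists at 1.22 with p = 0.00713 (adjusted p computed here 0.289).

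The genes of ligand and receptor could also be set side by side. In the authors' deposited table Tnfrsf4, which encodes OX40, was listed at -0.28 (p = 0.449) and its ligand gene Tnfsf4 at -1.43. Il6 stood at -0.88 in the authors' deposited table, its signalling chain gene Il6st at -0.98 and its specific receptor gene Il6ra at -0.06 without a p-value. Hbegf stood at -0.73 in the authors' deposited table, and its receptor genes Egfr and Erbb4 at -0.79 (p = 0.0947) and -1.23. Il2 and Il2ra had opposite signs, 0.46 and -1.01, in the authors' deposited table. The differences within pairs were not tested.

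**Figure D4:**
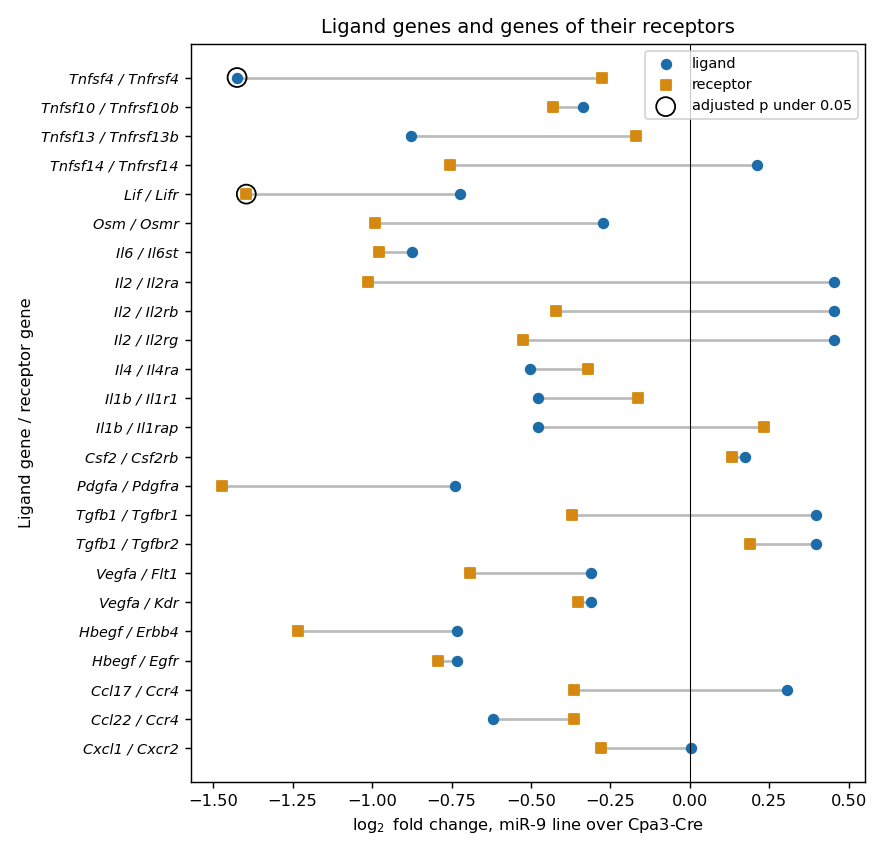
Log2 fold change (x axis, miR-9 line over Cpa3-Cre, authors' deposited values) of ligand genes (blue circles) and of the genes of their receptors (orange squares) for pairs in which both have a p-value. Rings mark the called genes, Tnfsf4 among ligands at -1.43 and Lifr among receptors at -1.40.

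Genes that make, process or degrade cytokine messages held no called gene by the Benjamini-Hochberg adjusted p, and 7 with an unadjusted p under 0.05. These were 1 of 26 transcription factors, 3 of 12 genes of processing and shedding and 3 of 15 genes of messenger decay and translation. Of all genes, 7.92 percent had such a p-value. Of 26 transcription factors of cytokine genes, 17 were negative (median -0.16), led by the NF-kB subunit gene Nfkb1 (-0.46, p = 0.0489) and the type 2 factor gene Gata3 (-0.88, p = 0.0688) in the authors' deposited table. Of 12 genes of processing and shedding, 9 were negative (median -0.34). Rhbdf1, for a rhomboid pseudoprotease that guides release of EGF family ligands, stood at -1.23 (p = 0.00215), Casp1, which cleaves interleukin-1 beta and interleukin-18, at -0.94 (p = 0.00507) and Itgb8, for an integrin chain that activates TGF-beta, at -1.12 (p = 0.0345) in the authors' deposited table. The 15 genes of messenger decay and translation had a median of 0.05. In the authors' deposited table the endonuclease gene Zc3h12a, whose product cuts Il6 messengers (-0.60, p = 0.00299), and Zfp36l1, a relative of tristetraprolin (-0.82, p = 0.00408), were negative and the deadenylase gene Cnot6 (0.47, p = 0.0106) was positive, without passing over all genes.

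Many ligand genes held AU-rich repeats. The pentamer ATTTA occurred at least 3 times in the longest 3′ UTR of 19 of 36 ligand genes (52.8 percent) and of 36.5 percent of all genes with an annotated 3′ UTR. The 3′ UTRs had a median length of 666.5 bases in the ligand genes and of 1073 bases in all genes. Those used for Cxcl2 (1494 bases) and Il6 (1668 bases) exceed the summed exons of their deposited models (1054 and 1087 bases). Their pentamers may therefore lie partly outside the models that were measured. The longer core TATTTAT, which overlaps the pentamer, occurred in 22 ligand genes (61.1 percent) and in 28.4 percent of all genes. The stretch richest in the pentamer is shown for the ligand genes with the most pentamers in 1 window of 30 bases and for Il6, with each pentamer in capitals, on the messenger strand of GRCm38.
Tnf (chr17:35199679-35199708, minus strand): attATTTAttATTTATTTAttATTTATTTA
Csf2 (chr11:54247329-54247358, minus strand): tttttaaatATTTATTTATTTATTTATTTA
Cxcl2 (chr5:90905327-90905356, plus strand): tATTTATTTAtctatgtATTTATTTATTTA
Il6 (chr5:30019677-30019706, plus strand): tttaattatttttaATTTAttgataATTTA

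The direction between ligand genes with and without these repeats turned with the definition, and none of these differences was tested. Among genes with a p-value, the 15 with at least 3 pentamers had a median log2 fold change of -0.31, with 11 negative, and the 13 with fewer had a median of -0.25, with 8 negative. With at least 5 pentamers the medians were -0.29 in 11 genes and -0.39 in the other 17. With TATTTAT they were -0.34 in 17 genes and -0.18 in the 11 without. Tnf, with 8 pentamers, stood at -0.67, and Csf2, with 9, at 0.17 in the authors' deposited table. Tnfsf4 had 2 pentamers in its 3′ UTR.

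Promoters from RefSeq (GRCm38.p6), 250 bases before to 50 after a gene's start, were found for 31 of the 40 ligand genes, and Tnfsf4 was not among them. An NF-kB motif, searched on both strands as GGG, any pair of bases and then TTCC or TTTCC, was found in 8 of 31 (25.8 percent) and in 7.93 percent of 27025 genes with a promoter. An NFAT motif, GGAAA followed by A, C or T on either strand, was found in 22 of 31 (71.0 percent) and in 51.6 percent of all genes; the NF-kB motif can hold this motif on the other strand. A gene with several promoters was counted if any of them held the motif. Il16 held the NF-kB motif only in its promoter at chr7:83655446-83655745, not in those upstream at chr7:83732349-83732648 and chr7:83735490-83735789. The NF-kB motif of Il6, the ligand gene with the second smallest p-value, is shown in capitals. Those of Cxcl10 and Il16 are shown for comparison, each on the strand of its gene.
Il6 (chr5:30013060-30013089, plus strand): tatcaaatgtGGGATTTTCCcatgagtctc
Cxcl10 (chr5:92348974-92349002, minus strand): cggtttacagGGGACTTCCctcgggttgc
Il16 (chr7:83655525-83655554, minus strand): catgactgctGGGAATTTCCcgctaaaggt

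The genes with this motif had values on either side of 0. Il6 stood at -0.88, Il16 at -0.25, Ccl9 at -0.18, Cxcl1 at 0.00 and Cxcl10 at 0.09 in the authors' deposited table, and Csf1 (-1.20) and Cxcl2 (-0.02) had a fold there without a p-value. The last of the 8, Il9, had no row. A motif match is a description of the sequence and does not show binding.

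**Figure D5:**
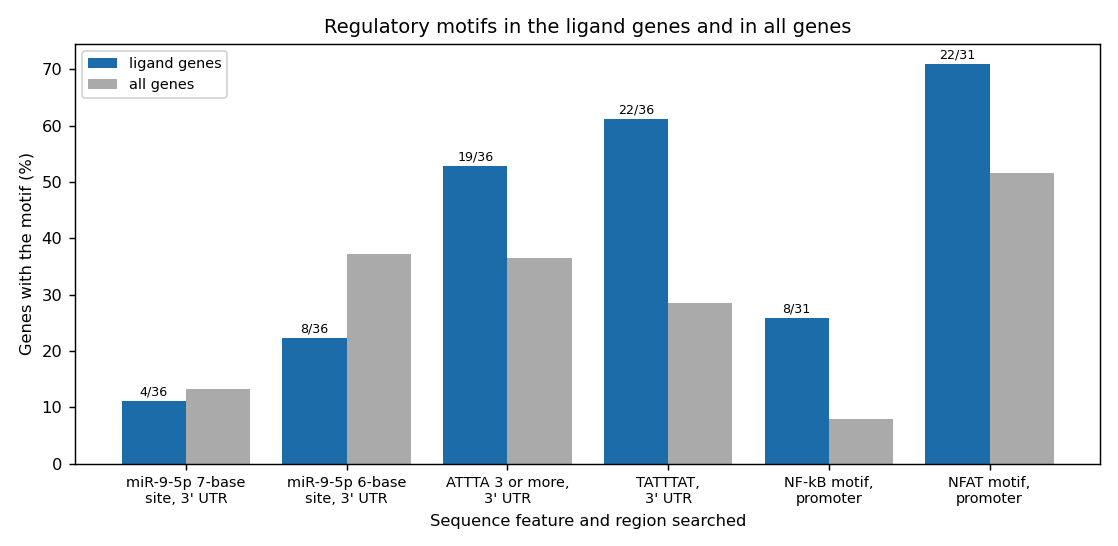
Share of genes with each motif (y axis, percent) among the ligand genes (blue, with counts) and all genes (grey), for the miR-9-5p and AU-rich motifs of the 3′ UTR and the NF-kB and NFAT motifs of the promoter. The 7-base miR-9-5p site stands at 11.1 and 13.3 percent, and TATTTAT at 61.1 and 28.4 percent.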

How the data were processed

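The data were 1 table of 25549 gene models for 5 samples in 2 groups, made from ribosome-depleted, strand-marked total RNA read as paired 50-base reads, per the labels' protocols. The tools listed per the submitters' processing notes are STAR, HTSeq and Cuffdiff, with DESeq and DESeq2, and the builds are mm10 and GRCm38, without versions or roles. The design text names DESeq2, a one-way analysis of variance and a threshold of 0.0001, and which test gave the p-values is not stated. The authors deposited a log2 fold change, the same fold as a signed linear score, and a p-value per gene, per the file headers, as well as a summed exon length. Whether folds were shrunken towards 0 is not given. Shrinkage would make them too small. Implied errors of several unrelated genes lay just below 0.54, such as Tnf (0.5390), Cd4 (0.5395), Mcpt4 (0.5395) and Clcf1 (0.5396). What set this level was not tested.

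The table holds 5 columns per library that match no sample's labels and were not used, so no depth, standard deviation or test per sample is given, and the count tests planned in case they could be matched were not run. Python 3.11.15, statsmodels 0.14.6 and scipy 1.17.1 were used for Benjamini-Hochberg adjustment across all genes and for implied errors, tested on simulated data. For the implied errors the simulated p-values came from the same normal formula. That checked the arithmetic only, not whether a Wald test gave the deposited p-values. Symbols were matched to GENCODE M21 (36 of 36 ligand genes). The members and lists were chosen with earlier results of these data known. Some lists share genes, such as Pdgfra (receptors and stromal markers) and Cxcl12 (other chemokines and stromal markers). All 40 members are named; of other lists, called genes and up to 4 with the smallest p-values, and further ones, such as Tslp, Egfr and Tnfrsf4, as examples chosen after their values were seen. Sequences are shown for Il6, which the rule of smallest p-values names, and, chosen after their values were seen, for genes with a motif described in the text. Alternatives were other adjustments, thresholds, gene sets and motif definitions. 1 microRNA site among the ligand genes is not reported here.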

Additional observations from a re-analysis of the deposited data

How the results depend on the processing

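Tnfsf4 was called with the adjustment over protein-coding genes (adjusted p = 0.00838), with empty p-values set to 1 (0.0122), at an adjusted p under 0.10 and at the design text's unadjusted p under 0.0001. With the Benjamini-Yekutieli adjustment 0 ligand genes were called (Tnfsf4, adjusted p = 0.122; 2 at an unadjusted p under 0.05), and 24 of all genes against 99; Lifr (0.177) and Tpsb2 (0.158), checked after seeing the data, also lost their call. At an adjusted p under 0.10 the count over all genes was 233, and at an unadjusted p under 0.05 it was 1906, with 2 ligand genes. The median log2 fold change of the ligand genes was -0.30 and stayed between -0.34 and -0.21 in 8 alternatives, -0.21 being its value relative to the median of all genes; leaving out the genes that overlap another model was chosen after seeing the data. A 6-base miR-9-5p match was found in 8 ligand genes (22.2 percent, against 37.2 percent of all genes) in place of 4; the cause was not tested. The other motif definitions moved the counts of ligand genes by less than 1.5 times. Without values per sample, no fit without a replicate and no count model (edgeR or DESeq2) could be run. No paired analysis was possible because no column of values per sample was used and nothing says that the numbers in the titles pair the samples. Depth per gene is unknown.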
